A study of Homo sapiens with 6 samples.

Results

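ABCC1, ABCC4, ABCC5, ABCC10 and ABCC11 are 5 genes of the ABCC family of ATP-binding cassette transporters. They were followed here in RNA-seq of LNCaP-AI cells in which the long non-coding RNA PCAT1 was knocked down. The 5 genes were picked by name with ABCC11 in view, whose levels in this same contrast were already known, so their levels and changes were chosen by values of these very samples and are given as a description. They are 5 of 11848 listed genes and account for 15 of 29091 listed transcripts. LNCaP-AI is an androgen-independent line obtained by keeping LNCaP, a human line from a prostate cancer metastasis, for a long time in medium stripped of androgen. Of the 6 samples, 3 were transfected with an shRNA against PCAT1 (shPCAT1) and 3 with a scramble shRNA (shSCR). Both groups shared the line, its androgen-deprived history and the transfection, and a single line was used throughout. The labels number the replicates 1 to 3 in each group without saying whether each was a culture of its own. The p-values therefore reflect the spread over these 6 samples alone, part or all of which may be technical.

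ABCC proteins hydrolyse ATP to pump organic anions, conjugated metabolites and drugs out of the cell or into vesicles. ABCC1 (MRP1) exports glutathione conjugates, leukotriene C4 and anthracyclines. ABCC4 (MRP4) exports cyclic nucleotides, prostaglandins and conjugated steroids, and is abundant in prostate epithelium. ABCC5 (MRP5) and ABCC11 (MRP8) both carry cyclic nucleotides and fluoropyrimidine nucleotides. ABCC11 also carries steroid sulfates such as DHEA sulfate, and is known from apocrine sweat glands. ABCC10 (MRP7) exports taxanes and vinca alkaloids.

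Values are FPKM, a read level scaled to transcript length and to the library's mapped reads, which allows levels of different genes to be set side by side. A gene's level is the sum over its listed transcripts. Changes are shPCAT1 minus shSCR on the scale log2(FPKM + 1), with the standard error (SE) of a limma fit over the 10825 genes that averaged 1 FPKM or more, and a gene was called at a Benjamini-Hochberg adjusted p of at most 0.05. The sequencing depth is unknown, and the listed FPKM summed to 263353 to 264179 in the shPCAT1 libraries and to 267242 to 303477 in the shSCR libraries. The library of shSCR replicate 3 stood apart, with a Pearson correlation across genes of 0.809 to 0.845 with the other libraries, against 0.91 to 0.946 among the other 5. The level of PCAT1 was not analysed here, and how far it was knocked down in these samples is therefore not given. Of 11 luminal prostate marker names, 10 were listed, and they summed to 1350 to 1520 FPKM in shPCAT1 and 1650 to 2090 FPKM in shSCR. KRT5 and KRT14, the 2 of 4 basal markers listed, summed to 1.27 to 1.65 FPKM in shPCAT1 and 1.59 to 2.51 FPKM in shSCR. Stromal markers, 3 of 6 listed (COL1A1, PDGFRB and ACTA2), summed to 4.97 to 8.13 FPKM in shPCAT1 and 10.9 to 15.6 FPKM in shSCR. SYP and ENO2, the 2 of 6 neuroendocrine markers listed, summed to 16.1 to 21.8 FPKM in shPCAT1 and 21.0 to 27.8 FPKM in shSCR, and CD68, the 1 of 4 immune markers listed, was at 2.58 to 15.2 FPKM in shPCAT1 and 5.14 to 21.1 FPKM in shSCR. The luminal and stromal sums did not overlap between the groups, as was true of ABCC11, ABCC4 and ABCC1, and their part in the values below was not tested. In such bulk samples, fewer cells of a type and less RNA per cell cannot be told apart.

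ABCC11 lies on the minus strand of chromosome 16 (hg19, chr16:48200821-48281479), and its 5 listed isoforms begin at 3 places. The most distal place holds ABCC11-001, starting at 48281305, and the short 5-exon ABCC11-006, starting at 48281479. ABCC11-201 and ABCC11-002 begin in the middle at 48269088, and ABCC11-004 begins most proximally at 48266182. The 250 bases before each place are printed because they are the candidate promoters of the RNA whose level differed most, followed by those before ABCC4 for contrast. They read 5′ to 3′ on the minus strand, with CpG dinucleotides in capitals. The distal and proximal windows and that of ABCC4 are RefSeq's, found again on GRCh37 for ABCC11 and given on GRCh38.p14 for ABCC4, and the middle window was read from the GRCh37 genome. The distal window ends at the RefSeq start, 145 bases upstream of that of ABCC11-001, and its last bases overlap the first exon of ABCC11-006, whereas the middle and proximal windows lie within an intron of ABCC11-001.
ABCC11 distal, GRCh37 chr16:48281451-48281700: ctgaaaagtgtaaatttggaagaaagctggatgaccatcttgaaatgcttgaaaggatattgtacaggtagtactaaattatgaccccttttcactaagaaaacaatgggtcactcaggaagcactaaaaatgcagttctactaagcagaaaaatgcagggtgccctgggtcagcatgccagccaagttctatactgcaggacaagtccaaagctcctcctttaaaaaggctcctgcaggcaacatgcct
ABCC11 middle, GRCh37 chr16:48269089-48269338: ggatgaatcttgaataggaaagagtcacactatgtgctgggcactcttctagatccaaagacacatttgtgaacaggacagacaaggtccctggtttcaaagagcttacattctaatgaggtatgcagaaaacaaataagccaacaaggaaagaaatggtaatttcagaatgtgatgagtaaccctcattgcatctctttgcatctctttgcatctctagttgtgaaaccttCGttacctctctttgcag
ABCC11 proximal, GRCh37 chr16:48266183-48266432: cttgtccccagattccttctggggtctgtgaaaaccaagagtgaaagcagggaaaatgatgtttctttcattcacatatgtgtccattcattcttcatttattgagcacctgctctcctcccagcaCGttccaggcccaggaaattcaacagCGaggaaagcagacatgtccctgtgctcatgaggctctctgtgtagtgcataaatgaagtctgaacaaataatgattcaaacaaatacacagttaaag
ABCC4, GRCh38.p14 chr13:95301452-95301701: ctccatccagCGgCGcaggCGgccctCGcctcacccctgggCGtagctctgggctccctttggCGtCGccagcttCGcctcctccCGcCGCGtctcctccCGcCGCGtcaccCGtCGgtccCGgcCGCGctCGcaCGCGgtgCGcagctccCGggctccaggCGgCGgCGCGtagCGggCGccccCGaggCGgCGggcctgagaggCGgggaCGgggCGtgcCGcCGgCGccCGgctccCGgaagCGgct

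The ABCC11 windows are poor in CpG. The distal one holds 0, the middle one 1 and the proximal one 2, at a GC content of 42.8%, 40.4% and 43.2%, whereas the window of ABCC4 holds 42 at 80.4%. Over 35116 RefSeq promoter windows the median was 11 CpG and 58.0% GC, so that the ABCC11 windows stood at GC percentiles 17.8, 13.4 and 18.6 and that of ABCC4 at 97.1. RefSeq lists another ABCC11 start at 48278499, where no listed isoform begins, and the window before it holds 24 CpG. The windows of ABCC5 and ABCC10 hold 21 CpG for ABCC5 and 16 and 14 for the pair of ABCC10. In all, 4 of the 5 genes matched the RefSeq table, the other being ABCC1. On both strands, AGAACA (bound by steroid receptors such as the androgen receptor) was found in 12.4% of all windows, TGTTTAC (forkhead factors) in 2.98%, GGGCGG (Sp1) in 42.6%, TATAAA (the TATA box) in 10.7%, CACGTG (E-box) in 6.34% and the NF-kB motif in 9.96%, and none of these 6 was found in the 3 ABCC11 windows printed. The printed ABCC4 window holds none of them either, and the ABCC11 window before 48278499 holds 2 of GGGCGG, counting both strands. This says only that these letters are not in the printed windows.

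ABCC11 was at 1.28, 1.43 and 1.11 FPKM in shPCAT1 replicates 1 to 3, against 18.1, 16.7 and 15.8 FPKM in shSCR replicates 1 to 3. Every shPCAT1 library was far below every shSCR library, and the spread within each group was small beside the distance between them. The means were 1.27 ± 0.159 FPKM in shPCAT1 and 16.8 ± 1.15 FPKM in shSCR (SD, n = 3 each), a 13.2-fold lower level in shPCAT1. On the log2(FPKM + 1) scale the change was -2.97 (SE 0.15), which ranked 7 from the lowest among the 10825 genes, and it was -3.02 without shSCR replicate 3. As the level in shPCAT1 is near the added 1 FPKM, the log2 change understates the fold. By its mean over the 6 samples ABCC11 stood at percentile 46.7 of the genes tested, so it was a gene of middling level in these cells.

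**Figure D1:**
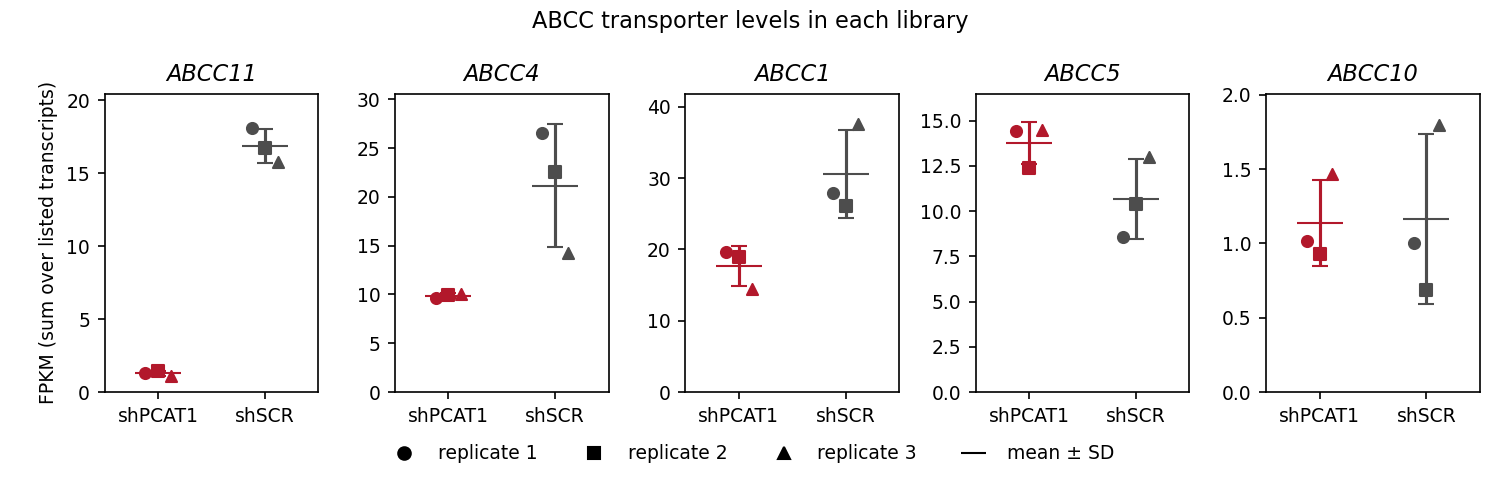
FPKM of the 5 ABCC genes (gene sums, linear axes, 1 panel a gene) in 3 shPCAT1 samples, left, and 3 shSCR samples, right, with each sample as a point and the mean and SD. ABCC11, ABCC4 and ABCC1 had all shPCAT1 points below all shSCR points, while ABCC5 and ABCC10 overlapped.

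ABCC4 lies on the minus strand of chromosome 13 (hg19, chr13:95672083-95953700). It was at 9.61, 9.93 and 10.1 FPKM in shPCAT1 replicates 1 to 3, against 26.6, 22.6 and 14.3 FPKM in shSCR replicates 1 to 3. The shPCAT1 libraries lay close together and below all shSCR libraries, the nearest of which was replicate 3. The means were 9.87 ± 0.242 FPKM in shPCAT1 and 21.2 ± 6.3 FPKM in shSCR (SD, n = 3 each), with a log2 change of -0.98 (SE 0.24). Without shSCR replicate 3 the change was -1.23 (SE 0.10), and ABCC4 was called in that fit but not with all 6 samples.

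ABCC1 lies on the plus strand of chromosome 16 (hg19, chr16:16043434-16236931), on the other arm from ABCC11. It was at 19.7, 18.9 and 14.4 FPKM in shPCAT1 replicates 1 to 3, against 27.9, 26.1 and 37.6 FPKM in shSCR replicates 1 to 3. The groups did not overlap, and here shSCR replicate 3 was the highest of all 6 samples rather than the lowest shSCR one, as it was for ABCC4. The means were 17.7 ± 2.87 FPKM in shPCAT1 and 30.5 ± 6.21 FPKM in shSCR (SD, n = 3 each). The log2 change was -0.75 (SE 0.21), and -0.60 (SE 0.16) without shSCR replicate 3. ABCC1 was called in neither fit.

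ABCC5 lies on the minus strand of chromosome 3 (hg19, chr3:183637722-183735803), and its values ran the other way. It was at 14.4, 12.4 and 14.5 FPKM in shPCAT1 replicates 1 to 3, against 8.59, 10.4 and 13.0 FPKM in shSCR replicates 1 to 3. The shSCR replicate 3 library lay above the lowest shPCAT1 library, so the groups overlapped. The means were 13.8 ± 1.17 FPKM in shPCAT1 and 10.6 ± 2.2 FPKM in shSCR (SD, n = 3 each), a log2 change of 0.36 (SE 0.19), and of 0.50 (SE 0.12) without shSCR replicate 3. It was called in neither fit.

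ABCC10 lies on the plus strand of chromosome 6 (hg19, chr6:43395292-43418168) and was the lowest of the 5, near the minimum for the fit. It was at 1.02, 0.931 and 1.47 FPKM in shPCAT1 replicates 1 to 3, against 1.0, 0.69 and 1.8 FPKM in shSCR replicates 1 to 3. The groups lay across each other, with shSCR replicates holding both the lowest and the highest value. The means were 1.14 ± 0.286 FPKM in shPCAT1 and 1.16 ± 0.573 FPKM in shSCR (SD, n = 3 each), and the log2 change of 0.01 (SE 0.26) was smaller than its error.

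Of the 5 genes, 1 (ABCC11) was called in the fit over all genes, in which 0.878% of genes were called. Without shSCR replicate 3 it was 2 of 5 (ABCC11 and ABCC4), where 8.03% of all genes were called. Groups that did not overlap with shPCAT1 lower were seen for 3 of 5 (ABCC11, ABCC4 and ABCC1), against 17.7% of all genes, and with shPCAT1 higher for 0 of 5, against 14.8%. Since the genes were taken up for their values in this contrast, nothing is read from these counts. The GC content of the transcripts was 50.2% for ABCC11, 44.8% for ABCC4, 54.9% for ABCC1, 50.6% for ABCC5 and 58.7% for ABCC10, against a median of 48.5% over all genes. Each is that of the gene's highest transcript, except for ABCC4. ABCC4-001 was not in the reference, so the median over the gene's protein-coding transcripts there was used. With the GC trend of each library removed, an alternative chosen after seeing the data, the log2 change was -2.88 (SE 0.15) for ABCC11, -1.06 (SE 0.20) for ABCC4, -0.51 (SE 0.15) for ABCC1, 0.47 (SE 0.14) for ABCC5 and 0.35 (SE 0.19) for ABCC10. ABCC11 was again the 1 member called, where 1.32% of all genes were.

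**Figure D2:**
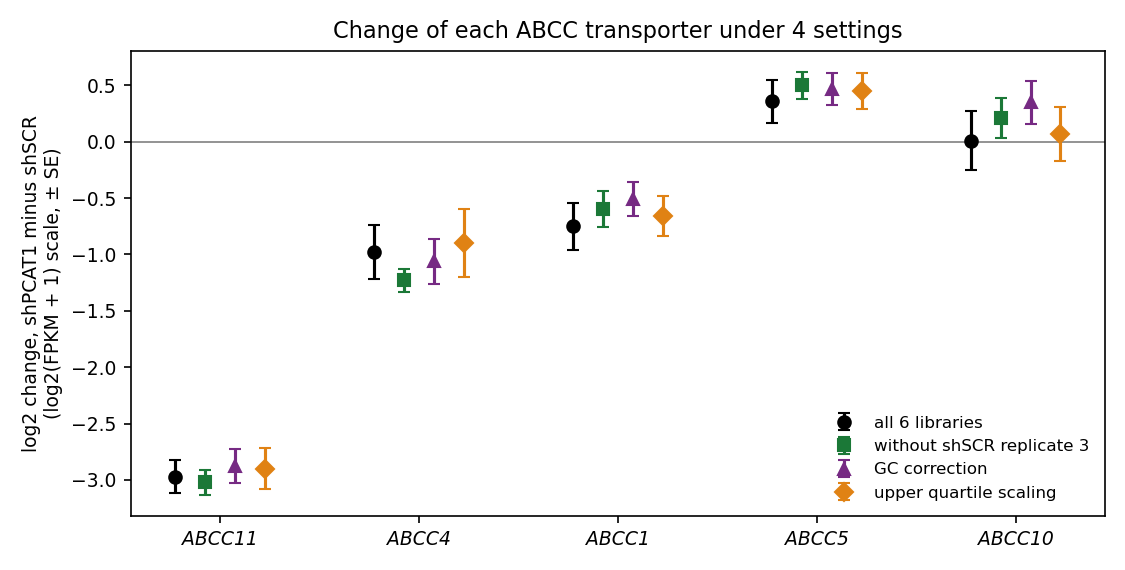
Change in each ABCC gene on the log2(FPKM + 1) scale (shPCAT1 minus shSCR, points with SE) from all 6 samples, without shSCR replicate 3, with a GC correction and with upper quartile scaling. ABCC11 lay at -2.97, -3.02 and -2.88 under the first 3 settings, and ABCC10 at 0.01, 0.21 and 0.35.

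The order of the 5 levels differed between the groups. In shPCAT1, ABCC1 was highest, followed by ABCC5, ABCC4, ABCC11 and ABCC10, where the samples of ABCC1 and ABCC5 overlapped, as did those of ABCC11 and ABCC10. In shSCR the order was ABCC1, ABCC4, ABCC11, ABCC5 and ABCC10, where the samples of ABCC1 and ABCC4 overlapped, as did those of ABCC4 and ABCC11. ABCC11 was thus among the lowest in shPCAT1, beside ABCC10, and stood above every ABCC5 value in shSCR. The 5 genes together reached 46.0, 43.7 and 41.5 FPKM in shPCAT1 replicates 1 to 3, against 82.1, 76.5 and 82.4 FPKM in shSCR replicates 1 to 3. The difference in means was -15.6 FPKM for ABCC11, -12.9 FPKM for ABCC1 and -11.3 FPKM for ABCC4. Of the sum, ABCC11 made up 2.91% ± 0.317 in shPCAT1 and 21.0% ± 1.62 in shSCR (SD, n = 3 each). The share of ABCC5 was 31.6% ± 3.2 in shPCAT1 and 13.2% ± 2.61 in shSCR, while that of ABCC1, the largest, was 40.2% ± 4.89 in shPCAT1 and 37.9% ± 6.76 in shSCR (SD, n = 3 each).

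The way the reads of ABCC11 were divided among its isoforms varied from library to library, so the levels of single isoforms are a description. ABCC11-001 was at 1.26, 0.493 and 0.417 FPKM in shPCAT1 replicates 1 to 3, against 14.9, 12.1 and 5.04 FPKM in shSCR replicates 1 to 3, and the groups did not overlap. ABCC11-201 was at 0, 0.461 and 0.299 FPKM in shPCAT1, against 0.739, 2.62 and 5.55 FPKM in shSCR, again without overlap. ABCC11-004 was at 0.02, 0.441 and 0.394 FPKM in shPCAT1, against 0, 0 and 5.18 FPKM in shSCR, so that its groups overlapped. The log2 changes were -2.68 (SE 0.44) for ABCC11-001, -1.48 (SE 0.53) for ABCC11-201 and -0.53 (SE 0.80) for ABCC11-004. ABCC11-001 averaged 0.724 FPKM in shPCAT1 and 10.7 FPKM in shSCR. It met the table's minimum in both groups but the fit's minimum of 1 FPKM through shSCR, so no difference is read from it. ABCC11-201 and ABCC11-004 reached both the table and the fit through their shSCR levels alone. They had to be lower in shPCAT1 to be there, so no difference is read from them either. ABCC11-002 and ABCC11-006 also entered the table through their shSCR levels alone and were below the minimum for the fit. ABCC11-002 was at 0, 0.0319 and 0 FPKM in shPCAT1, against 0.94, 1.13 and 0 FPKM in shSCR, and ABCC11-006 was listed at 0 in all shPCAT1 libraries, against 1.49, 0.855 and 0 FPKM in shSCR.

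As a share of the gene sum, ABCC11-001 made up 98.4%, 34.6% and 37.6% in shPCAT1 replicates 1 to 3, against 82.5%, 72.4% and 31.9% in shSCR replicates 1 to 3. In shPCAT1 replicates 2 and 3 and in shSCR replicate 3 the sum was spread over ABCC11-001, ABCC11-201 and ABCC11-004 at about equal levels, while in the other 3 libraries ABCC11-001 dominated, and these sets cut across the groups. ABCC1 was divided along the same line. ABCC1-201 took 10.9% and 14.5% of its gene's sum in shPCAT1 replicates 2 and 3 and 8.06% in shSCR replicate 3, and was at or near 0 in the rest. The reads of the study were 50 bases long, and few stretches of that length tell the ABCC11 isoforms apart. With the GENCODE v44lift37 exons cut to the ends that the deposited table gives each isoform, 79 of the 4563 stretches of 50 bases in ABCC11-001 (1.73%) are in no other listed isoform, 329 of 4813 in ABCC11-004 (6.84%) and 0 of 4527 in ABCC11-201. ABCC11-001, ABCC11-201 and ABCC11-004 have the same annotated coding region of 4146 bases. Within the deposited ends they differ ahead of it, in first exons of 81, 46 and 449 bases, whereas the annotation itself lets ABCC11-001 run further at both ends (a first exon of 226 bases and a last exon of 1594 bases). Summed by start site, a grouping chosen after seeing the data, the distal isoforms were at 1.26, 0.493 and 0.417 FPKM in shPCAT1 replicates 1 to 3, against 16.4, 12.9 and 5.04 FPKM in shSCR replicates 1 to 3. The middle ones were at 0, 0.492 and 0.299 FPKM in shPCAT1, against 1.68, 3.74 and 5.55 FPKM in shSCR. Hence the split between start sites cannot be read from these values, whereas the gene sum was even within each group.

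**Figure D3:**
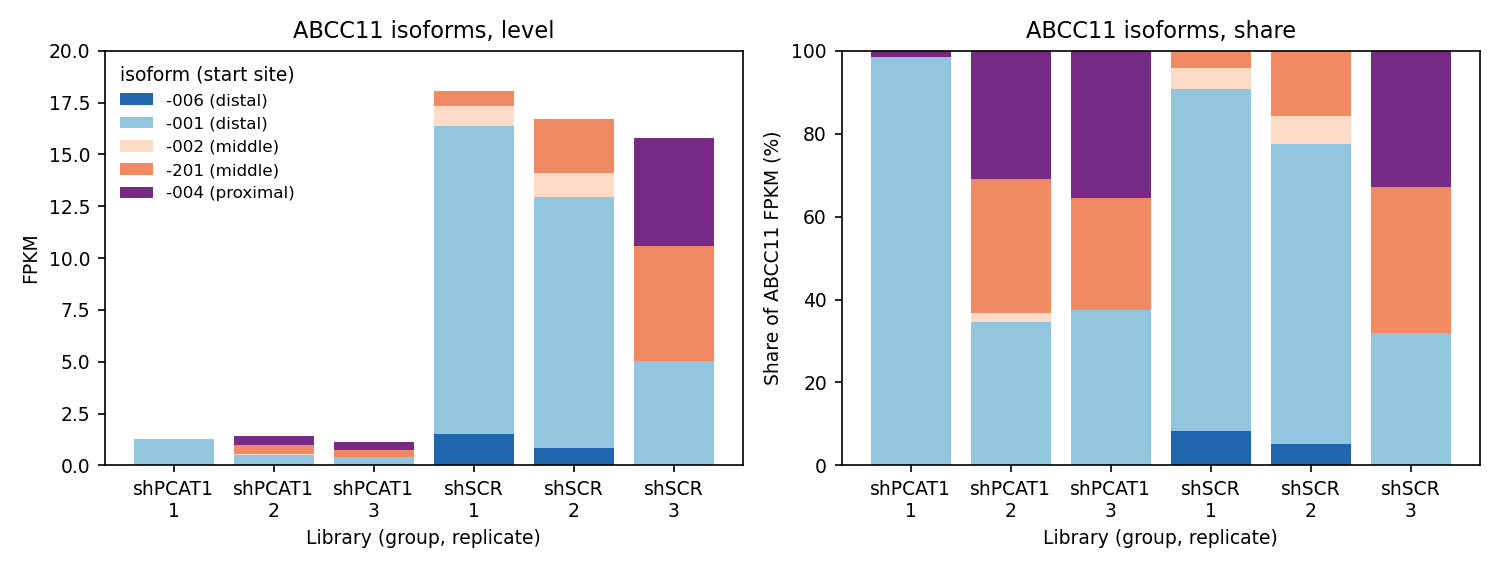
Listed isoforms of ABCC11 in each sample, as stacked FPKM (left panel) and as percent of the gene sum (right panel), with the shPCAT1 samples left of the shSCR samples. The gene sum was 1.11 to 1.43 FPKM in shPCAT1 and 15.8 to 18.1 FPKM in shSCR, and shPCAT1 replicates 2 and 3 and shSCR replicate 3 had their values spread over 3 isoforms.

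Of the other 10 transcripts, ABCC1-001 and ABCC4-001 carried most of the sum of their genes in every library. ABCC5 and ABCC10 had no such form. ABCC1-001 was at 19.7, 16.9 and 12.3 FPKM in shPCAT1, against 27.9, 26.1 and 34.6 FPKM in shSCR, and ABCC4-001 was at 9.32, 9.22 and 9.63 FPKM in shPCAT1, against 23.5, 22 and 14.2 FPKM in shSCR. Neither pair of groups overlapped, and the log2 changes were -0.83 (SE 0.25) and -0.98 (SE 0.25). The full-length ABCC5-001 of 30 exons was at 8.34, 6.43 and 8.43 FPKM in shPCAT1, against 4.52, 4.2 and 7.34 FPKM in shSCR, with a log2 change of 0.48 (SE 0.28). The short ABCC5-006 of 5 exons was at 5.13, 5.28 and 3.85 FPKM in shPCAT1, against 3.14, 5.63 and 4.17 FPKM in shSCR, with a change of 0.13 (SE 0.28), so that much of the ABCC5 sum came from a form with few of the gene's exons. The 2 forms of ABCC10 traded places between libraries, ABCC10-002 being at 0.2, 0.197 and 1.35 FPKM in shPCAT1 and at 0.154, 0.69 and 0 FPKM in shSCR. Of the 15 transcripts, 8 passed the minimum of 1 FPKM and 7 were listed at 0 in at least 1 library. None of the 8 was called at the level of transcripts (0 of 8), where 0.0977% of 20474 transcripts were called, and 4 of 8 had groups that did not overlap, against 22.5% of all transcripts. ABCC11-001 and ABCC11-201 are among these 4 and ABCC11-004 among the 8, so nothing is read from this count.

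The 4 tested genes beside ABCC11 had changes between -0.23 and 0.09. LONP2, a peroxisomal protease, overlaps the distal end of ABCC11 on the opposite strand (hg19, chr16:48278207-48391260) and was at 22.2, 18.1 and 17.2 FPKM in shPCAT1 replicates 1 to 3, against 18.7, 22.6 and 21.9 FPKM in shSCR replicates 1 to 3. Its groups overlapped and its log2 change was -0.13 (SE 0.17). Libraries were made with a stranded kit, but whether reads were counted by strand is not given in the sources used here, so reads in the overlap could go to either gene. PHKB, a subunit of phosphorylase kinase, had a change of 0.09 (SE 0.24), the ubiquitin ligase SIAH1 of 0.05 (SE 0.32) and the ribonuclease N4BP1 of -0.23 (SE 0.23) on the same scale, with adjusted p between 0.608 and 0.947 for the 4 genes in the limma fit. PHKB was at -0.17 and SIAH1 at -0.30 without shSCR replicate 3, on the other side of 0. ABCC12, the closest paralog, lies 20.1 kb from ABCC11 on the same strand and was at 0.0392, 0.0572 and 0.064 FPKM in shPCAT1 replicates 1 to 3, against 0.404, 0.637 and 0.939 FPKM in shSCR replicates 1 to 3. It was below the minimum for the fit and was listed only through its shSCR level, so its lower shPCAT1 values are a description. The listed ABCC11 isoforms share 0 stretches of 50 bases with the annotated transcripts of ABCC12.

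**Figure D4:**
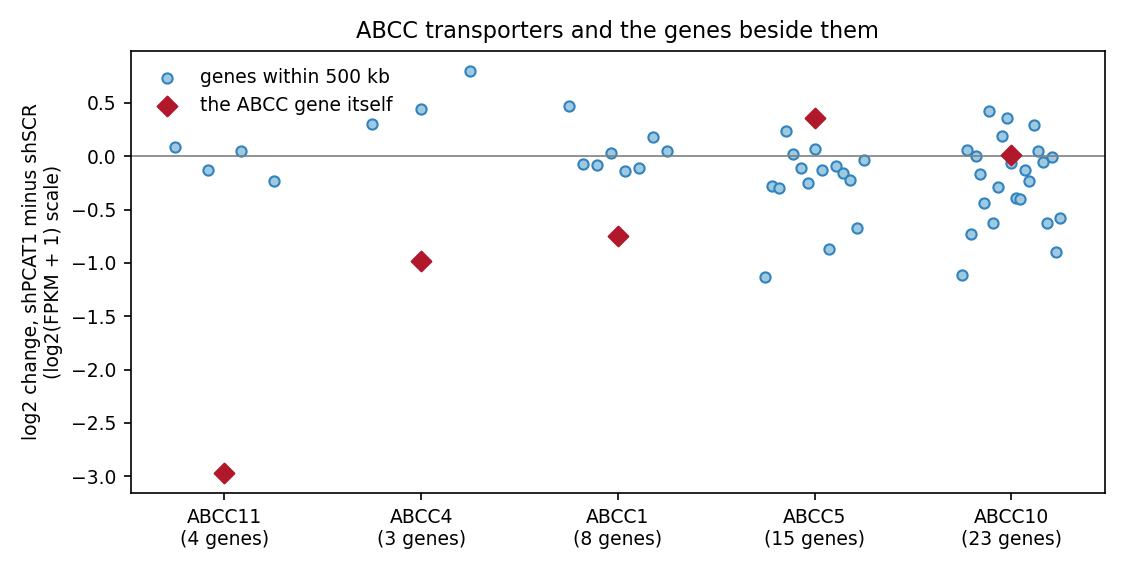
Change on the log2(FPKM + 1) scale (shPCAT1 minus shSCR, points without error bars) of the 5 ABCC genes and of the tested genes within 500 kb of each. The genes beside each are evenly spaced in the order of their start positions. The 4 genes beside ABCC11 lay between -0.23 and 0.09, and ABCC11 at -2.97.

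Within 500 kb of the 5 genes, 57 genes were listed and 53 tested, of which 0 were called by limma. At an unadjusted p up to 0.05, 2 of the 53 were higher and 5 lower, against 7.23% of all genes tested that were higher and 10.0% that were lower, so these counts are near or below the background. Their median change was -0.11, against -0.05 over all genes tested. ABCC6, the paralog 5.85 kb from ABCC1, had a change of -0.14 (SE 0.33), and the 8 genes beside ABCC1 lay between -0.14 and 0.47. All 3 genes beside ABCC4 lay above 0 in the main fit, opposite in sign to ABCC4 itself, with changes of 0.30 to 0.80. With the GC correction they did not share a sign, TGDS being at -0.10, GPR180 at 0.07 and DNAJC3 at 0.56. Without shSCR replicate 3, 2 of the 53 were called, where 8.03% of all genes were, so nothing is read from this count. These 2 were named after their values were seen. DNAJC3, an endoplasmic reticulum co-chaperone 376 kb from ABCC4, was higher by 0.50 (adjusted p = 0.0413, limma), and KLHL24, a ubiquitin ligase adaptor 240 kb from ABCC5, was lower, at -1.45 (adjusted p = 0.0327). The corresponding adjusted p with all 6 samples was 0.244 for DNAJC3 and 0.196 for KLHL24.

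No other ABC transporter was called. Of 43 genes in the list, 24 were listed and 20 tested, of which 0 were called by limma, and the median change was -0.19, against -0.05 over all genes. The list median was -0.11 without shSCR replicate 3, against -0.01 over all genes. With the GC correction it was -0.01, against 0.0 over all genes, so no lean of the list is read. At an unadjusted p up to 0.05, 1 was higher and 3 were lower of the 20, beside the 7.23% and 10.0% of all genes given above. The changes were largest for ABCB6, a porphyrin transporter, at -1.11 (SE 0.35, adjusted p = 0.206). It was at 7.58, 11 and 11.4 FPKM in shPCAT1 replicates 1 to 3, against 18.7, 15.9 and 37.0 FPKM in shSCR replicates 1 to 3, where the highest value was again that of shSCR replicate 3. The lysosomal cobalamin transporter ABCD4 had a change of -0.77 (SE 0.32), the lysosomal lipid transporter ABCA2 of -0.57 (SE 0.17), the antigen peptide transporter subunit TAP2 of -0.54 (SE 0.25) and the sterol exporter ABCG1 of -0.50 (SE 0.19). ABCE1, a ribosome recycling factor that transports nothing, had a change of 0.71 (SE 0.22). The adjusted p of these 5 lay between 0.2 and 0.337. TAP2 was at -0.32 without shSCR replicate 3, and with the GC correction ABCA2 was at -0.12, ABCG1 at -0.26 and ABCE1 at 0.29. Without shSCR replicate 3, 2 of the 20 were called, both higher, and 0 were called lower, where 8.03% of all genes were called. The 2 were ABCE1 at 0.48 (adjusted p = 0.0311) and the translation factor ABCF1 at 0.57 (adjusted p = 0.035). Nothing is read from this count.

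**Figure D5:**
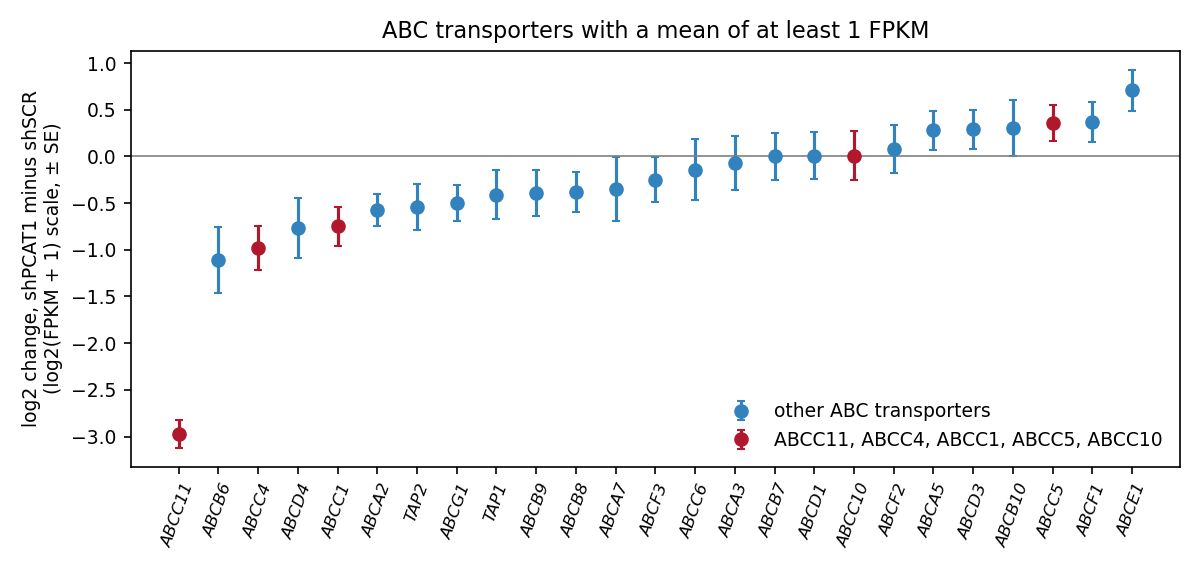
Change on the log2(FPKM + 1) scale (shPCAT1 minus shSCR, SE) of the 5 ABCC genes and the 20 other ABC transporters tested. The other transporters lay between -1.11 and 0.71, with ABCC11 at -2.97.

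Genes that make or remove the substrates of these pumps were counted in the same fit. Their counts at an unadjusted p up to 0.05 stand against the same shares of all genes, 7.23% higher and 10.0% lower. Their counts of called genes stand against 0.878% of all 10825 genes called, 36 of them higher and 59 lower. For the cyclic nucleotides carried by ABCC4, ABCC5 and ABCC11, 12 genes were tested, with 1 called higher, 0 called lower and a median of -0.09, and with 1 higher and 2 lower at an unadjusted p up to 0.05. The called gene was GUCY1A3, the alpha subunit of soluble guanylate cyclase, which makes cyclic GMP. It was at 9.33, 7.85 and 7.56 FPKM in shPCAT1 replicates 1 to 3, against 3.02, 2.13 and 3.02 FPKM in shSCR replicates 1 to 3, a change of 1.32 (SE 0.18, adjusted p = 0.0451, limma). Its shPCAT1 values all lay above its shSCR values, but it was called under only 7 of 16 alternatives, with adjusted p between 0.0238 and 0.378. Without shSCR replicate 3, 2 more were called lower, where 8.03% of all genes were called. They were ADCY7, an adenylate cyclase, at -0.76, and PDE9A, a cyclic GMP phosphodiesterase, at -0.76, both named after their values were seen.

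For the sulfated steroids carried by ABCC11, 9 genes of sulfation were tested, with 0 called higher, 1 called lower and a median of 0.00, and with 2 higher and 1 lower at an unadjusted p up to 0.05. SULT1A1, a phenol sulfotransferase, was at 6.49, 5.50 and 5.67 FPKM in shPCAT1 replicates 1 to 3, against 13.8, 17.6 and 14.9 FPKM in shSCR replicates 1 to 3. The groups lay well apart, with a change of -1.25 (SE 0.16, adjusted p = 0.0416, limma), but its reads can be shared with near-identical copies, so its level is uncertain. It was called under 7 of 16 alternatives, with adjusted p between 0.0215 and 0.853, and its change was -0.40 with the highest transcript only. The steroid sulfotransferase SULT2B1, named after its values were seen, was at 6.63, 11.7 and 11.8 FPKM in shPCAT1 replicates 1 to 3, against 2.56, 3.55 and 1.25 FPKM in shSCR replicates 1 to 3. Its shPCAT1 values all lay above its shSCR values, with the largest change of the list, 1.70 (SE 0.34, adjusted p = 0.099), which did not pass the threshold. Of the carriers that take up organic anions, 2 were tested and 0 called, with 0 at an unadjusted p up to 0.05. SLCO4A1 had a change of -0.52 (adjusted p = 0.401) and SLCO5A1 of 0.33 (adjusted p = 0.449). The change of SLCO4A1 was -0.23 without shSCR replicate 3 and -0.12 with the GC correction.

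For the glutathione conjugates exported by ABCC1, 22 genes were tested and 0 called by limma, with 2 higher and 5 lower at an unadjusted p up to 0.05 and a median of -0.13. GGT1, the surface enzyme that cleaves glutathione, had a change of -1.10 (SE 0.18, adjusted p = 0.0669), and GSTT1, a glutathione transferase, of -0.92 (SE 0.15, adjusted p = 0.0657). The 2 higher genes, named after their values were seen, were GCLC at 0.93 (SE 0.17, adjusted p = 0.0802) and the glutathione transferase GSTA1 at 1.41 (SE 0.26, adjusted p = 0.0863). GSTA1 averaged 3.99 FPKM in shPCAT1 and 0.892 FPKM in shSCR, so it met the fit's minimum through its shPCAT1 level. With the GC correction, the change was -0.69 for GGT1, -0.62 for GSTT1 and 0.83 for GCLC, which was then called (adjusted p = 0.0475, limma). GGT1 was at 21.0, 23.0 and 24.8 FPKM in shPCAT1 replicates 1 to 3, against 48.8, 41.8 and 61.2 FPKM in shSCR replicates 1 to 3, without overlap. Without shSCR replicate 3, 1 gene was called higher and 5 lower, where 8.03% of all genes were called. The higher one was GCLC, the catalytic subunit of the enzyme that starts glutathione synthesis, at 0.83 (adjusted p = 0.0284), named after its values were seen. The lower ones were GGT1 and GSTT1 with GSS, GSR and GSTO2, which complete, reduce or use glutathione.

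For prostaglandins, exported by ABCC4, 6 genes of synthesis, breakdown and reception were tested and 0 called, with 1 higher and 2 lower at an unadjusted p up to 0.05. The prostaglandin receptor PTGER4 had a change of 1.20 (adjusted p = 0.141) and HPGD, the enzyme that inactivates prostaglandins, of -0.93 (adjusted p = 0.264). HPGD averaged 0.473 FPKM in shPCAT1 and 1.81 FPKM in shSCR. It reached the table and the fit through its shSCR level alone, so no difference is read from it. PTGER4, at 2.37 FPKM in shPCAT1 and 0.526 FPKM in shSCR, met the fit's minimum through its shPCAT1 level. As both are among the genes counted, nothing is read from the counts. Of 18 genes that handle fluoropyrimidines and antifolates, 0 were called, with 1 higher and 2 lower at an unadjusted p up to 0.05. TYMP, thymidine phosphorylase, had a change of -1.26 (adjusted p = 0.274), and of -0.69 without shSCR replicate 3, which was at 64.9 FPKM, and GGH, which trims folate polyglutamates, of 0.89 (adjusted p = 0.126). Among adaptors that anchor ABCC proteins at the membrane, 4 were tested and 0 called, with 0 at an unadjusted p up to 0.05. SLC9A3R1, which binds the tail of ABCC4, had a change of -0.95 (adjusted p = 0.317), and SLC9A3R2 of -0.55 (adjusted p = 0.508). Without shSCR replicate 3, SLC9A3R1 was at -0.47 (SE 0.11, adjusted p = 0.0794, limma), a smaller change, and its groups did not overlap. SLC9A3R2 rested on that replicate, without which it was at -0.09. With the GC correction in addition SLC9A3R2 was at 0.06, on the other side of 0.

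Among the 7828 genes that averaged 5 FPKM or more, the 5 whose levels followed ABCC11 most closely over the 6 libraries were ELL3, JAG1, CTDSP2, CDKN1A and DUSP4, with Pearson r of 0.997 to 0.999 on the log2(FPKM + 1) scale. The libraries form 2 groups, so that any gene that is even within the groups and lower in shPCAT1 scores high, and these r are a description. DUSP4, a phosphatase of MAP kinases, was at 13.5, 13.2 and 13.4 FPKM in shPCAT1 replicates 1 to 3, against 82.2, 75.1 and 61.6 FPKM in shSCR replicates 1 to 3. Its shSCR values ran in the same order as those of ABCC11, as did those of CTDSP2 and ELL3, but its shPCAT1 values did not. The genes were picked for following ABCC11, so nothing is read from this order. CTDSP2, a phosphatase, was at 6.63, 6.36 and 5.38 FPKM in shPCAT1, against 25, 22.5 and 20.8 FPKM in shSCR, and CDKN1A, which encodes the cell cycle inhibitor p21, averaged 34.8 ± 1.21 FPKM in shPCAT1 and 86.9 ± 3.2 FPKM in shSCR (SD, n = 3 each). JAG1, a Notch ligand, averaged 11.6 ± 0.0729 FPKM in shPCAT1 and 17.7 ± 0.501 FPKM in shSCR, and ELL3, a transcription elongation factor, 4.71 ± 0.0502 FPKM in shPCAT1 and 6.84 ± 0.154 FPKM in shSCR (SD, n = 3 each). The r with ABCC11 was 0.90 for ABCC4, 0.88 for ABCC1, -0.76 for ABCC5 and -0.05 for ABCC10 over the same 6 libraries, which share this grouping.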

How the data were processed

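RNA of 3 shPCAT1 and 3 shSCR samples of LNCaP-AI was sequenced as 50-base single-end reads. The deposited table holds the FPKM of protein-coding transcripts on hg19, computed by the authors with Ballgown, and keeps transcripts with a mean of at least 0.5 FPKM in either group. The submitters' processing notes name HISAT2 2.0.4, whereas the study's methods name TopHat. The authors also deposited a log2 fold change, its linear fold ratio and the p-value and q-value of their own test per transcript, which were not used.

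FPKM were summed by gene name. The 10825 genes that averaged 1 FPKM or more were compared as log2(FPKM + 1), pseudocount 1, with limma 3.58.1 in R 4.3.3 (trend and robust, no covariate) and Benjamini-Hochberg adjustment over all genes. Transcripts (20474) were treated alike. The GC correction subtracted a smooth trend of each library on transcript GC content.

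The members, lists and tests were chosen with earlier results of these data known. Named were the 5 members, all called genes of each list or else up to 2 (up to 6 ABC transporters) with the smallest p, the tested genes beside ABCC11, called genes beside the others and the 5 genes that followed ABCC11 most closely. No counts were used, so depth is unknown and precision comes from replicates alone. The alternatives were another pseudocount, filter, scaling or limma setting, the replicate block, the highest transcript alone, each sample left out and, added after seeing the data, the GC correction and sums by start site.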

Additional observations from a re-analysis of the deposited data

How the results depend on the processing

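ABCC11 was lower in shPCAT1 under all 16 alternatives, with log2 changes of -3.63 to -2.68. The ends were -3.63 with a pseudocount of 0.1 and -2.68 with the highest transcript only. It was called under 14 of them, the exceptions being the replicate block and the highest transcript only. Of all genes, 2 and 16 were called in these 2 fits, and 4 to 869 in the others. As ABCC11 was picked with its values in this contrast known, nothing is read from the count of its calls. ABCC4 kept its sign under 16 alternatives (-1.26 to -0.80, called under 2), as did ABCC1 (-0.85 to -0.50, called under 0) and ABCC5 (0.23 to 0.55, called under 0). Both calls of ABCC4 came without shSCR replicate 3. There, 869 of 10825 genes were called, and 670 of 10800 with the GC correction in addition. ABCC10 ran from -0.15 to 0.35, below 0 under 3 of 14 alternatives, and was 0.35 with the GC correction, with or without shSCR replicate 3. It gave no value with the filter at 5 FPKM or the highest transcript only.

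Over all genes, 95 were called. The number was 56 with a pseudocount of 0.1, 53 with a filter at 5 FPKM, 16 with the highest transcript only, 143 with the GC correction, 670 with the GC correction and shSCR replicate 3 left out, and 4 to 869 with each sample left out in turn. Of transcripts, 20 were called, 9 with a pseudocount of 0.1, 13 with no filter and 1 to 86 with each sample left out. The highest of each range came without shSCR replicate 3. Deviations of same-numbered samples from their group means were hardly correlated (-0.0238, -0.0142 and 0.0209 for replicates 1 to 3). With 3 samples a group and shSCR replicate 3 apart, this cannot decide whether same-numbered samples were handled together. With the replicate block 2 genes were called. The replicate block left 0 calls in the sulfation and cyclic nucleotide lists.

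Leaving out each sample gave 0 to 2 calls among other ABC transporters, 0 to 6 among glutathione genes, 0 to 1 in sulfation, 0 to 3 in cyclic nucleotides, 0 to 1 in prostaglandins, 0 to 2 in fluoropyrimidines and 0 to 2 beside the members. The highest of these counts came without shSCR replicate 3, where 8.03% of all genes were called. The sulfation call was lost (0) with upper quartile scaling, the highest transcript only and the GC correction. The cyclic nucleotide call was lost (0) with a pseudocount of 0.1, the filter at 5 FPKM and the highest transcript only. The GC correction gave 1 call among glutathione genes (GCLC) and 1 beside the members (KLHL24). With shSCR replicate 3 left out as well, it gave 1 among ABC transporters, 5 among glutathione genes, 3 in cyclic nucleotides, 2 in fluoropyrimidines and 1 beside the members. The cause of these differences was not tested. What depth limits cannot be given, since no counts were used.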
